A study of Bos taurus with 129 samples.

Results

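The genes described here are 13 endometrial genes that had a lower mean level in pregnant than in non-pregnant cows at day 16. They are COL4A3, COL4A4, COL2A1, LAMA3, EFNA5, GDF10, HUNK, PREX2, CACNA1G, CA8, VNN1, PON3 and TMEM107, out of 14900 gene names matched between both endometrial experiments. The genes were selected on their measured levels in N and NP endometrium. A gene was taken when its mean log2(CPM + 1) was lower by at least 0.8 in cows with a normal conceptus (N) than in non-pregnant cows (NP) in both experiments, with a mean of at least 2 CPM in NP in both. CPM is the count of a gene per 1000000 counts of its library. OXTR and ESR1 were left out by this rule, and the N and NP levels of endometrium are therefore a description of the choice and were not tested.

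The libraries came from lactating Holstein cows at day 16 and were made from endometrium, corpus luteum, peripheral blood mononuclear cells (PBMC) and conceptuses. EM denotes pregnancies undergoing embryo mortality, which the study recognised by a pink, red or opaque conceptus or by restricted elongation. N denotes a normal conceptus and NP a non-pregnant cow. Endometrium held 6 EM, 9 N and 7 NP libraries in the experiment called E2 and 4 EM, 8 N and 7 NP libraries in the experiment called E1. Corpus luteum E2 and PBMC E2 held 6 EM, 9 N and 7 NP libraries each, PBMC E1 held 3 EM, 7 N and 5 NP libraries, and conceptus E2 held 6 EM and 9 N libraries. The methods of the study describe the 15 cows of the E2 conceptuses, which were inseminated at a fixed time with semen of 1 sire, but not the NP cows, the cows of E1 or the region of endometrium sampled, and nothing ties the libraries of a cow together across tissues.

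In ruminants the elongating conceptus secretes interferon tau, which induces interferon-stimulated genes (ISGs) in the endometrium and holds back the oestrogen and oxytocin receptors on which pulses of prostaglandin F2 alpha depend, so that the corpus luteum persists. The endometrium that receives this signal is a layered tissue of luminal and glandular epithelium on basement membranes, over stroma and vessels, and the myometrium lies beneath it. The type IV collagens and laminins form these basement membranes, ephrins and growth factors carry signals between neighbouring cells, and ion channels and kinases act within them.

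The depth was 12805514 to 18698985 counts per library in endometrium E2, 8217465 to 12388469 in endometrium E1, 15359730 to 20811951 in corpus luteum, 10734161 to 18325538 in PBMC E2 and 4648644 to 14932407 in PBMC E1. Several libraries stood apart in their cell type markers. In endometrium E2 the smooth muscle markers summed to 363 to 5048 CPM in EM, 419.6 to 31569 CPM in N and 325 to 13772 CPM in NP, with the highest values in the EM library S80, the N library S81 and the NP library S69. The EM library S83 of E2 had 4063 CPM of leukocyte markers, against 128.1 to 849.1 CPM in the other endometrium E2 libraries. It also had the lowest sum of epithelial markers there, 577.3 CPM. In endometrium E1 the highest values were 21018 CPM in the EM library S17, 31450 CPM in the N library S23 and 24844 CPM in the NP library S30, and the NP library S31 had 10426 CPM of epithelial markers, against 277 to 3276 CPM in the other E1 libraries, and 6543 CPM of stromal markers, against 17806 to 45883 CPM. In corpus luteum the markers of luteal steroidogenic cells were low in the EM library S121 (6271 CPM) and in the NP library S109 (500.2 CPM), against 15302 to 47873 CPM in the other libraries. In PBMC E1 the leukocyte markers summed to 236 CPM in the NP library S47, although its total was 9356879 counts. In bulk tissue, fewer cells of a type and less RNA per cell cannot be told apart.

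Few genes met the rule in both experiments, and most of the differences that chose them lay within the spread between libraries. Among 10919 names with enough counts, 83 were lower by 0.8 or more in N in E2, and 14 of the names lower in E2 were so in E1 too with OXTR counted, which is 16.9% of the E2 list and 12.6% of the E1 list. In the opposite direction 200 names were higher by 0.8 or more in N in E2, 277 in E1 and 157 in both. In the edgeR fit over all genes, 0 of the 13 members passed an adjusted p of 0.05 for N minus NP in E2, where 1.41% of all genes passed, and 1 of 13 (EFNA5) passed in E1, where 2.52% of all genes passed. At an unadjusted p of 0.05, 4 of 13 were lower in E2, against 2.79% of all genes, and 10 of 13 in E1, against 7.75%. DESeq2 called 1 member (EFNA5) in E2, with 2.76% of all genes, and 6 members in E1, with 5.45%. These contrasts chose the members, so nothing is read from the counts. Groups without overlap were seen for EFNA5 in E1, with every N library below every NP library as for 0.0533% of the genes there, and for 0 members in E2, against 0.0788% of the genes. The name repressed by pregnancy thus restates the rule on group means, and the gap of EFNA5 in E1 comes from libraries that also chose it. The members just inside the limit were GDF10, with a difference of -0.81 in E2 and -0.87 in E1, TMEM107, with -0.82 and -0.87, and VNN1, with -0.82 and -1.34. The names just outside were APLNR, with -1.28 in E2 and -0.796 in E1, COX3, with -0.78 and -1.03, and LAMA1, with -0.78 and -0.78.

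The first group of members belongs to the extracellular matrix. COL4A3 (chromosome 2, 116131000 to 116291205 in UMD3.1) and COL4A4 (chromosome 2, 115971118 to 116104632) encode the alpha 3 and alpha 4 chains of type IV collagen, which assemble with the alpha 5 chain in specialised basement membranes such as that of the kidney glomerulus. In endometrium E2, COL4A3 had 0.718, 12.8 and 26.2 CPM in EM (lowest, median and highest), 0.482, 8.85 and 37.9 CPM in N, and 1.00, 23.2 and 81.2 CPM in NP. The 3 groups overlapped over most of their range, and the lowest library of each group was the one with the most smooth muscle markers, S80 in EM, S81 in N and S69 in NP. In endometrium E1, COL4A3 had 0.578, 11.2, 25.4 and 40.3 CPM in the 4 EM libraries, 5.21, 8.65 and 54.2 CPM in N, and 9.03, 43.6 and 59.6 CPM in NP. The N library S22 lay among the NP libraries and the NP library S31 among the N libraries, and the lowest EM value was that of S17, which is rich in smooth muscle markers. The part of smooth muscle in these values was not tested.

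COL4A4 was low in the same libraries. In endometrium E2 it had 2.80, 32.1 and 69.7 CPM in EM, 1.58, 17.9 and 70.8 CPM in N, against 3.95, 64.6 and 195 CPM in NP. In endometrium E1 it had 2.20, 17.4, 34.5 and 39.8 CPM in EM, 6.16, 14.5 and 74.5 CPM in N, against 14.7, 38.5 and 54.1 CPM in NP. Again S80, S81 and S69 were the lowest of their groups in E2, and S17 and S23 in E1 EM and N.

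The pair lies side by side on chromosome 2, with 26368 bp and no annotated gene between them in UMD3.1. In human and mouse the pair is arranged head to head around a shared promoter region. Within groups of libraries the levels rose and fell together. On the log2(CPM + 1) scale Pearson's r was 0.995 in EM (n = 6), 0.985 in N (n = 9) and 0.995 in NP (n = 7) of endometrium E2, with exact permutation p of 0.00278, 4.41e-05 and 3.97e-04 (two-sided) and adjusted p of 0.0037, 1.76e-04 and 0.00106 over 8 relations. Spearman's rho was 1, 0.95 and 1 in these groups, with exact permutation p of 0.00278, 3.53e-04 and 3.97e-04 and adjusted p of 0.00444, 0.00106 and 0.00106. In endometrium E1, r was 0.946 in N (n = 8, exact permutation p = 0.00174, adjusted 0.00278) and 0.887 in NP (n = 7, exact permutation p = 0.00556, adjusted 0.00635), with rho of 0.905 (exact permutation p = 0.00456, adjusted 0.00608) and 0.929 (exact permutation p = 0.00675, adjusted 0.00771). In corpus luteum, r was 0.961 in EM (n = 6, exact permutation p = 0.0194, adjusted 0.0194), 0.973 in N (n = 9, exact permutation p = 3.31e-05, adjusted 1.76e-04) and 0.972 in NP (n = 7, exact permutation p = 7.94e-04, adjusted 0.00159), with rho of 0.771 (exact permutation p = 0.103, adjusted 0.103), 0.967 (exact permutation p = 1.65e-04, adjusted 0.00106) and 0.964 (exact permutation p = 0.00278, adjusted 0.00444). Without the 2 libraries farthest from the median of COL4A3, r was 0.939 in EM, 0.989 in N and 0.983 in NP of endometrium E2, 0.845 in N and 0.705 in NP of endometrium E1, and 0.485 in EM, 0.981 in N and 0.717 in NP of corpus luteum. The relation in corpus luteum of EM cows therefore rests on those 2 libraries. Both genes were measured in the same libraries, and the part of cell type shares in the relation was not tested.

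**Figure D1:**
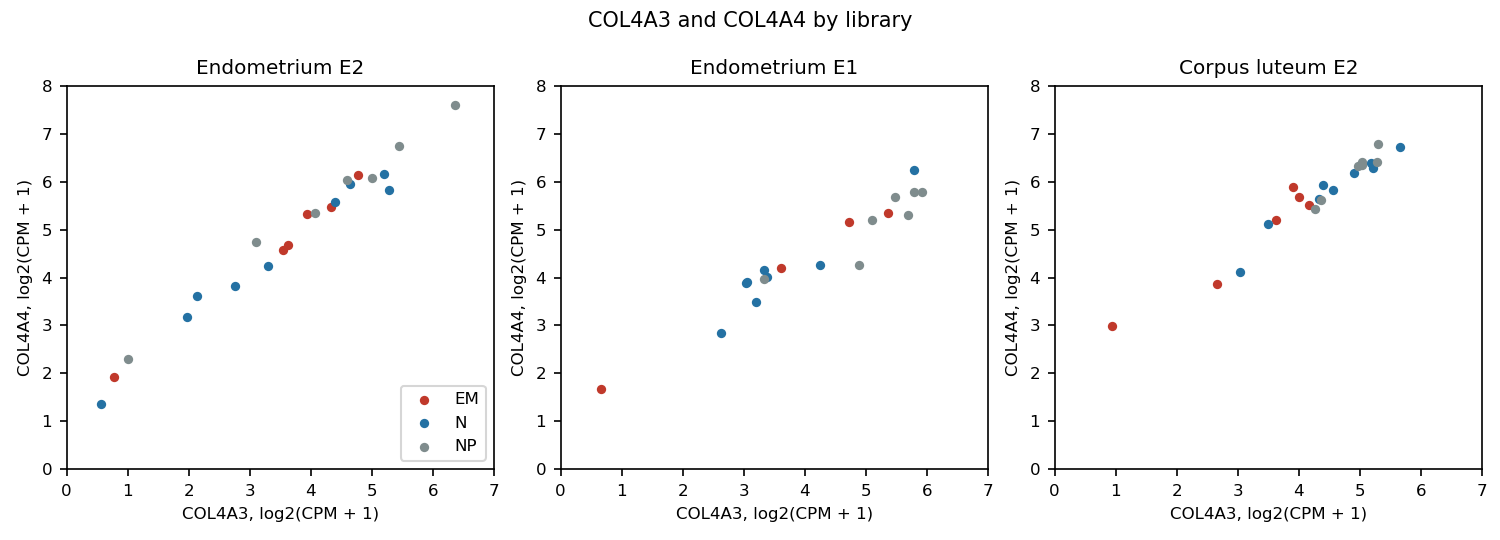
COL4A3 (x axis) against COL4A4 (y axis), both as log2(CPM + 1), with 1 point per library, coloured by group (EM, N, NP). In all 3 panels the points run along a rising line, and r within groups was 0.887 to 0.995.

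COL2A1 (chromosome 5, 32450298 to 32481276) encodes the fibrillar collagen of cartilage and was low in endometrium. It had 0.215, 0.936 and 3.24 CPM in EM, 0.344, 1.11 and 4.29 CPM in N, against 0.803, 6.38 and 12.9 CPM in NP of E2. In E1 it had 1.5, 5.37, 5.45 and 34.8 CPM in EM, 1.84, 10.7 and 14 CPM in N, against 4.05, 21.2 and 36.7 CPM in NP. In E2 4 of 7 NP libraries lay above every N library, the others being S66, S68 and S69, and in E1 5 of 7 did, the others being S30 and S31. COL2A1 was the member that met the rule under each of 37 alternative settings.

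LAMA3 (chromosome 24, 33072942 to 33324798) encodes the alpha 3 chain of the laminin that anchors epithelial cells to their basement membrane. It had 21.5, 45.7 and 85.5 CPM in EM, 19.5, 33.4 and 73.6 CPM in N, against 44.2, 60.2 and 147 CPM in NP of E2. In E1 it had 24.8, 39.7, 44.8 and 71.2 CPM in EM, 8.66, 29.3 and 72.2 CPM in N, against 25.9, 43.3 and 104.2 CPM in NP. The highest NP value of E1 was that of S31, the library rich in epithelial markers, and without S31 LAMA3, CA8 and HUNK no longer met the rule.

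The related chains named here did not pass the test, and they were chosen after the values of the members were seen. In endometrium E2 the log2 fold change of N minus NP by edgeR was 0.17 ± 0.18 (SE, adjusted p = 0.878) for COL4A1, -0.06 ± 0.24 (adjusted p = 0.973) for COL4A2 and 0.47 ± 0.70 (adjusted p = 0.919) for COL4A5. In E1 the edgeR values were 0.45 ± 0.28 (adjusted p = 0.455), 0.09 ± 0.32 (adjusted p = 0.93) and -0.26 ± 1 (adjusted p = 0.931), in the same order. The value of COL4A5 was smaller than its SE in both experiments. For LAMB3, a laminin chain of epithelial basement membranes, the log2 fold change of N minus NP was -0.50 ± 0.29 (adjusted p = 0.639) in E2 and -0.93 ± 0.43 (adjusted p = 0.282) in E1. Of the list of extracellular matrix genes and their proteases, which holds COL2A1, COL4A3, COL4A4 and LAMA3, with 151 names in the E2 table and 137 in the E1 table, 0 passed in any of the 3 contrasts of E2 or E1 by edgeR, which tested 84.1% of them in E2 and 84.7% in E1. The shares of all genes called in E2 are 0% for EM minus N, 0.247% for EM minus NP and 1.41% for N minus NP, and in E1 they are 1.38%, 0.0426% and 2.52%. At an unadjusted p of 0.05 by edgeR, 7, 9 and 9 genes of the list passed in E2 and 11, 15 and 20 in E1, in the same order of contrasts. Over all genes, 1516, 1778 and 1786 of 19038 passed that level in E2 and 1898, 1295 and 2295 of 14084 in E1. DESeq2 called 0, 0 and 1 (ADAMTS8) of the list in E2, with 0.176%, 1.31% and 2.76% of all genes. In E1 it called 2 (COL18A1 and COL23A1), 1 (TNC) and 2 (COL11A2 and LOXL4), with 4.25%, 0.821% and 5.45% of all genes. None of these called genes was a member. The median log2 fold change of the list for N minus NP was -0.13 in E2 and -0.18 in E1, beside 0.01 and -0.04 over all genes tested, and for EM minus NP it was -0.21 in E2 and -0.37 in E1, beside 0.03 and -0.04. The list holds COL2A1, COL4A3, COL4A4 and LAMA3, which these N and NP libraries chose. Its medians are therefore a description, and nothing is read from them.

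**Figure D2:**
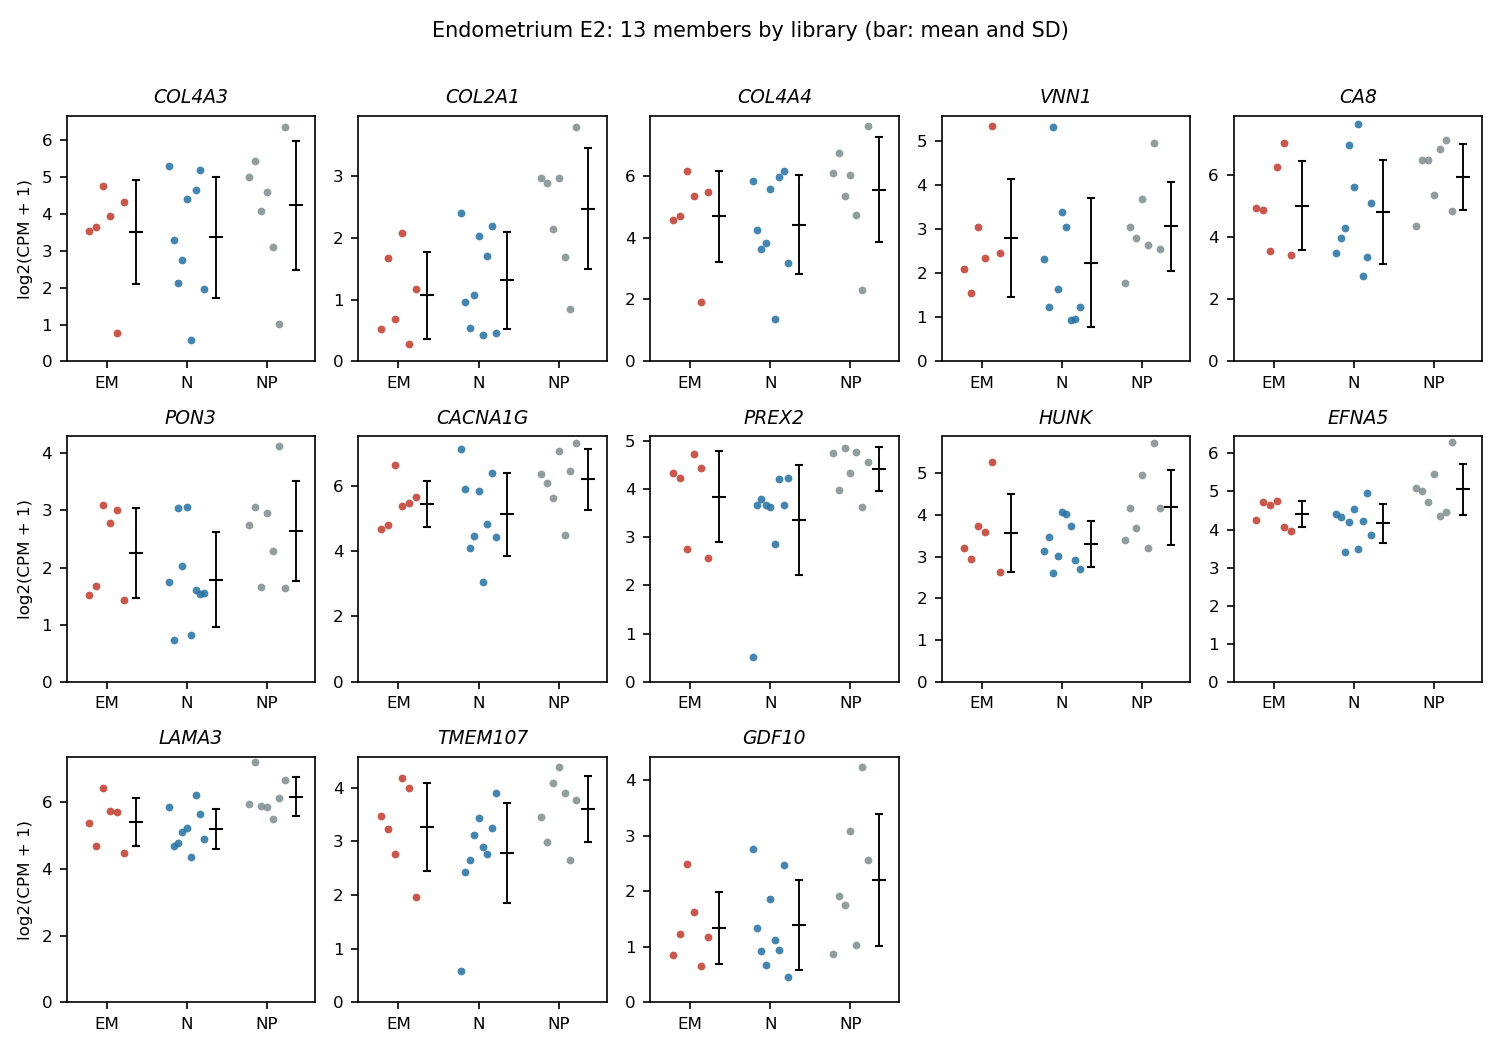
Level of each member in endometrium E2 as log2(CPM + 1), with 1 point per library in EM (n = 6), N (n = 9) and NP (n = 7), and a bar for the mean and SD of each group. The groups overlap for every member, and for PREX2 and TMEM107 1 N library lies far below the rest.

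The second group carries signals between and within cells. EFNA5 (chromosome 7, 109049590 to 109217439) encodes ephrin A5, a membrane-anchored ligand of Eph receptors. It had 14.7, 21 and 26 CPM in EM, 9.56, 17.6 and 30.3 CPM in N, against 19.5, 31.1 and 77.7 CPM in NP of E2. In E1 it had 1.73, 3.20, 3.21 and 5.12 CPM in EM, 0.663, 1.82 and 2.79 CPM in N, against 2.82, 3.61 and 10.2 CPM in NP. In E1 the N and NP libraries did not overlap, and 3 of 4 EM libraries lay within the NP range.

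GDF10 (chromosome 28, 42628171 to 42640763) encodes a secreted factor of the TGF beta family related to BMP3. It had 0.575, 1.30 and 4.60 CPM in EM, 0.373, 1.17 and 5.80 CPM in N, against 0.818, 2.76 and 17.7 CPM in NP of E2, and 3.38, 3.47, 4.34 and 4.75 CPM in EM, 1.84, 3.38 and 7.01 CPM in N, against 0.813, 10 and 16.7 CPM in NP of E1. The EM libraries of E1 lay close together and inside the N range. GDF10 depended most on the settings, being a member under 20 of 37 alternatives.

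HUNK (chromosome 1, 2781252 to 2919429) encodes a kinase related to AMPK, PREX2 (chromosome 14, 34040796 to 34340573) an exchange factor that activates Rac, and CACNA1G (chromosome 19, 36731340 to 36792932) the pore subunit of a T-type calcium channel. HUNK had 5.25, 9.65 and 37.6 CPM in EM, 5.09, 7.80 and 15.7 CPM in N, against 8.19, 16.8 and 51.7 CPM in NP of E2, and 1.5, 3.54, 4.75 and 5.23 CPM in EM, 0.379, 4.02 and 5.81 CPM in N, against 3.01, 7.71 and 21 CPM in NP of E1. The highest EM and NP values of E2 were those of S80 and S69, the libraries in which COL4A3 was lowest. CACNA1G had 24.3, 41.5 and 97.7 CPM in EM, 7.36, 27.3 and 138 CPM in N, against 21.4, 81.2 and 155 CPM in NP of E2, and 22.4, 48.9, 75.5 and 94.4 CPM in EM, 39, 64.6 and 116.1 CPM in N, against 27.1, 149 and 255 CPM in NP of E1. In E1 the 4 EM values lay below 6 of the 7 NP values, the exception being S31.

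PREX2 had 4.88, 18.4 and 25.5 CPM in EM, 0.429, 11.6 and 17.8 CPM in N, against 11.4, 22.6 and 27.7 CPM in NP of E2. In E1 it had 12.1, 12.6, 16.0 and 16.7 CPM in EM, 2.10, 6.35 and 13.9 CPM in N, against 3.16, 15.5 and 18.6 CPM in NP. The lowest N value of E2 was that of S72, which was also lowest for TMEM107, and without S72 neither PREX2 nor TMEM107 met the rule.

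The third group holds enzymes, a related protein without enzyme activity and a protein of the cilium. CA8 (chromosome 14, 27637561 to 27719848) encodes a relative of the carbonic anhydrases that lacks their catalytic activity and binds the inositol trisphosphate receptor. It had 9.77, 29.1 and 132 CPM in EM, 5.76, 18.7 and 201 CPM in N, against 19.6, 88 and 139 CPM in NP of E2. In E1 it had 16.3, 21.7, 21.8 and 79.7 CPM in EM, 4.55, 16.8 and 146 CPM in N, against 12.8, 19.2 and 159 CPM in NP. CA8 was highest in S80, S81 and S69 of E2 and in S17 and S23 of E1, the libraries with the most smooth muscle markers of their groups, and the NP libraries S30 and S31 of E1 had 115.9 and 159 CPM. It was thus high in the libraries where COL4A3 and COL4A4 were low.

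VNN1 (chromosome 9, 71833315 to 71851906) encodes pantetheinase, which releases vitamin B5 from pantetheine, and PON3 (chromosome 4, 12441126 to 12478659) a lactonase of the paraoxonase family. VNN1 had 1.93, 4.29 and 39.4 CPM in EM, 0.913, 2.14 and 39.1 CPM in N, against 2.46, 5.99 and 29.8 CPM in NP of E2, and 2.78, 3.05, 6.85 and 8.79 CPM in EM, 2.17, 3.41 and 9.59 CPM in N, against 3.95, 8.45 and 105.8 CPM in NP of E1. Each group of E2 had 1 library far above its median, and in E1 the highest value was again that of S31. PON3 had 1.69, 4.03 and 7.50 CPM in EM, 0.653, 2.04 and 7.30 CPM in N, against 2.14, 5.73 and 16.4 CPM in NP of E2, and 4.23, 6.01, 10.3 and 11.4 CPM in EM, 0.919, 3.33 and 7.54 CPM in N, against 0.565, 9.84 and 16.2 CPM in NP of E1. In E1 the 4 EM libraries were spread over the upper N range and the NP range.

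TMEM107 (chromosome 19, 28432877 to 28435112) encodes a protein of the transition zone of cilia. It had 2.89, 9.25 and 17.1 CPM in EM, 0.501, 6.40 and 14 CPM in N, against 5.29, 12.6 and 19.8 CPM in NP of E2. In E1 it had 7.37, 8.91, 9.37 and 14.1 CPM in EM, 1.73, 4.76 and 10.5 CPM in N, against 6.05, 9.60 and 12.7 CPM in NP. The markers of ciliated cells, of which TMEM107 is no member, summed to 105.8 to 891 CPM in EM, 102.7 to 435 CPM in N and 100.7 to 493.3 CPM in NP of E1, and their part in TMEM107 was not tested. Per kilobase of exon in E1, where gene lengths are given, the mean levels of NP were 27.8 CPM per kb for CA8, 18.9 for CACNA1G, 13.9 for VNN1 and 2.58 for PREX2, and without S31 they were 18.6, 21.5, 5.73 and 2.91.

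**Figure D3:**
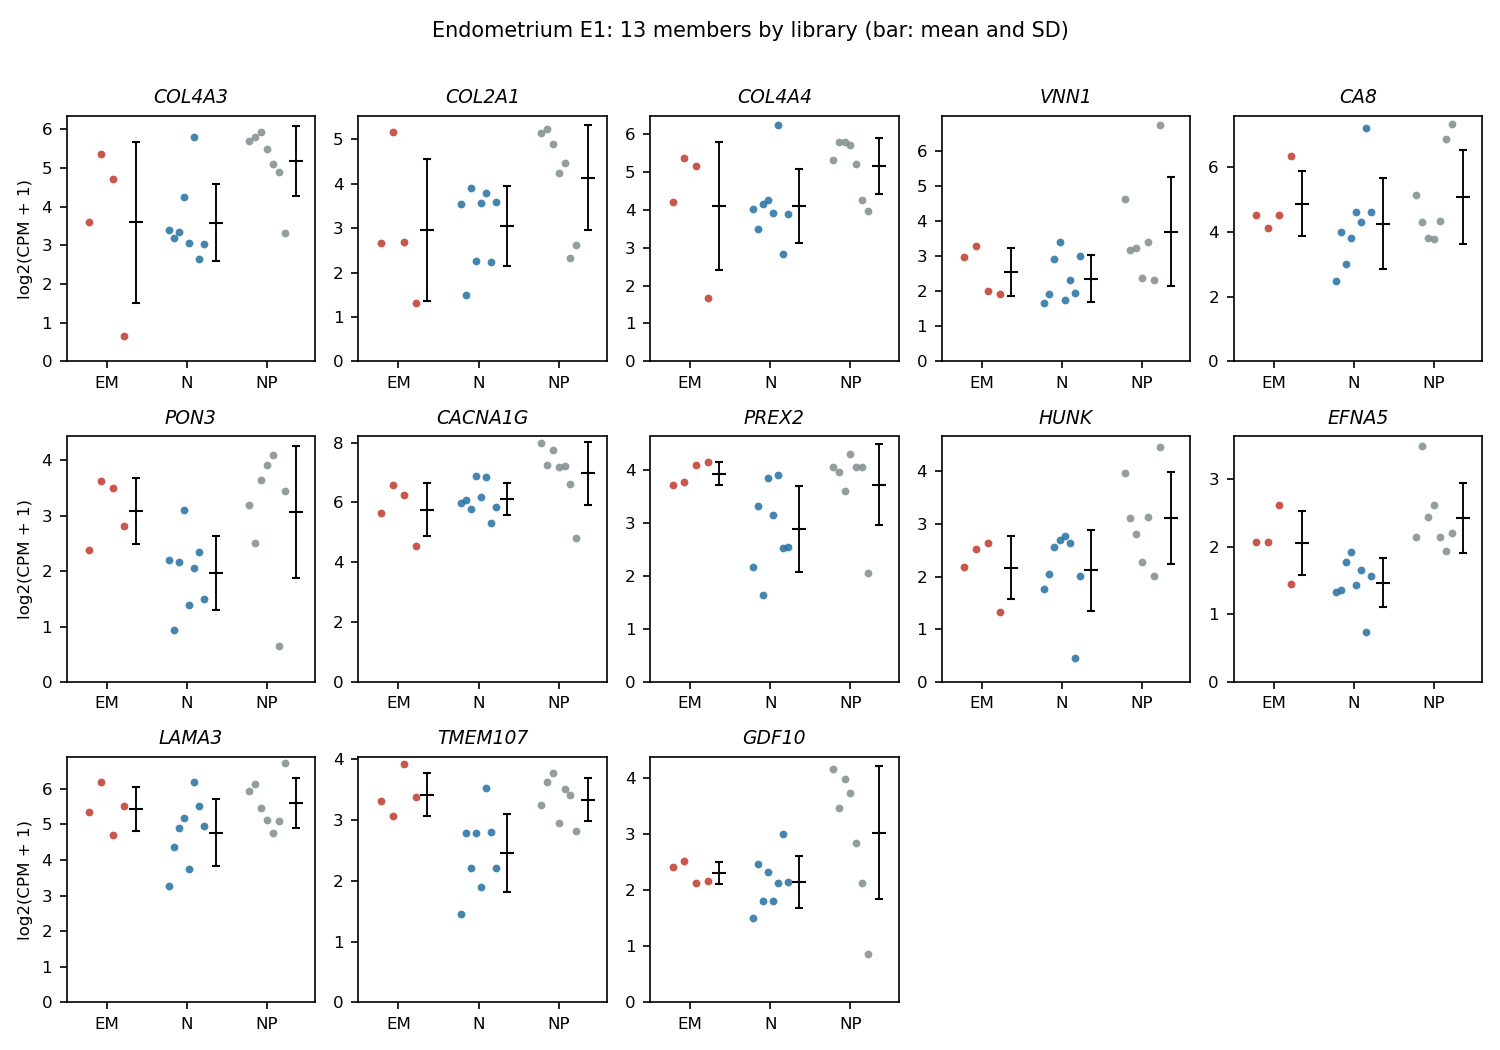
Level of each member in endometrium E1 as log2(CPM + 1), with 1 point per library in EM (n = 4), N (n = 8) and NP (n = 7), and a bar for the mean and SD of each group. The N and NP points of EFNA5 do not overlap, and for the other members they do.

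The comparison of EM with N and NP asks where these genes stood in the endometrium of cows whose conceptus was failing. The place of the EM mean was expressed on a scale on which the N mean is 0 and the NP mean is 1, on log2(CPM + 1). The place ranged from -0.21 to 0.69 in E2, with a median of 0.27, and from -0.42 to 1.24 in E1, with a median of 0.18. In E2 10 of 13 members had a place under 0.5, nearer to N, and in E1 7 of 13. Both ends of the scale are the means that chose the members, and the members share the same libraries. The places and these counts are therefore a description, and were not set beside those of other genes. Places were also computed with each library left out, which was chosen after seeing the data. The places of COL4A3 and COL4A4 changed side in each experiment when the EM library richest in smooth muscle markers was left out. COL4A3 had a place of 0.16 in E2 and 0.79 without S80, and 0.002 in E1 and 0.62 without S17. COL4A4 had 0.24 in E2 and 0.73 without S80, and -0.005 in E1 and 0.77 without S17. The N and NP libraries rich in these markers stayed in. Without the N library S81 the places in E2 moved the other way, to -0.42 for COL4A3 and -0.14 for COL4A4. In E1 the lowest places with 1 library left out were -0.37 and -0.41. Without S17 the median place in E1 was 0.62, with 6 of 13 members under 0.5, and without S80 the median in E2 was 0.28, with 11 of 13. Without the EM library S83, rich in leukocyte markers, the median in E2 was 0.40, with 8 of 13. PREX2 and HUNK then had 0.70 and 0.51. Without the EM library S77 the median in E2 was 0.19, with 12 of 13.

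COL2A1 (-0.21 in E2 and -0.08 in E1), GDF10 (-0.07 and 0.18) and CACNA1G (0.28 and -0.42) were under 0.5 in both experiments, and remained so with any 1 library left out. Without S80 they had -0.07, 0.10 and 0.28 in E2, and without S17 they had 0.42, 0.24 and 0.04 in E1. HUNK had 0.30 and 0.05 over all libraries, and its place in E2 ran from -0.08 to 0.51 with 1 library left out.

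PON3 had a place of 0.54 in E2 and 1.02 in E1, and TMEM107 had 0.60 and 1.09, nearer to NP over all libraries. In E2 these places were not stable, and with 1 library left out PON3 ran from 0.34 to 0.76 and TMEM107 from 0.37 to 0.91. Without S80 they had 0.36 and 0.42, and without the EM library S77 they had 0.42 and 0.37. Without the EM library S83 they had 0.73 and 0.91. In E1 PON3 ran from 0.75 to 1.23 and TMEM107 from 0.91 to 1.23 with 1 library left out. The other 5 members changed side. CA8 had a place of 0.19 in E2 and 0.74 in E1, PREX2 0.46 and 1.24, EFNA5 0.27 and 0.61, and LAMA3 0.21 and 0.80, whereas VNN1 had 0.69 in E2 and 0.14 in E1. Without S80 VNN1 had 0.07 in E2, and without S17 CA8 had 0.15 in E1. The EM means rest on 6 and 4 libraries, and no test of the difference between the experiments was made.

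**Figure D4:**
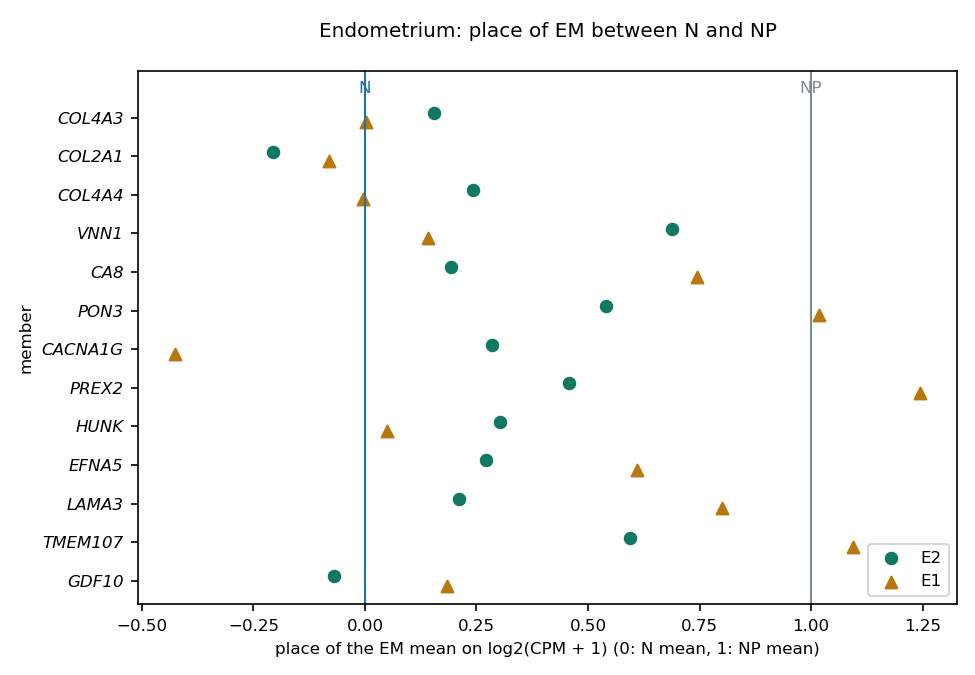
Place of the EM mean of each member in endometrium E2 (circles) and E1 (triangles) on log2(CPM + 1), where 0 is the N mean and 1 the NP mean. Both points of CACNA1G, COL2A1 and GDF10 lie under 0.5, and those of COL4A3 and COL4A4, drawn over all libraries, move to between 0.62 and 0.79 without S80 in E2 or S17 in E1. Without the N library S81 the E2 points of COL4A3 and COL4A4 move to -0.42 and -0.14.

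By edgeR, 0 of 13 members passed an adjusted p of 0.05 in any of the 4 comparisons of EM with N or NP in endometrium. The N or NP libraries of these comparisons also chose the members, so the counts are a description. For EM minus N in E2, 0 of 13 also passed an unadjusted p of 0.05, against 7.96% of all genes, and DESeq2 called 0 members, with 0% of all genes called by edgeR and 0.176% by DESeq2. For EM minus NP in E2, 3 of 13 passed the unadjusted level, all lower in EM, against 1.62% of all genes, and DESeq2 called 0, with 0.247% of all genes called by edgeR and 1.31% by DESeq2. The 3 were COL2A1, with a log2 fold change of -1.99 ± 0.70 (SE, adjusted p = 0.273), EFNA5, with -0.71 ± 0.29 (adjusted p = 0.39), and GDF10, with -1.60 ± 0.75 (adjusted p = 0.517). The median log2 fold change over the members was 0.15 for EM minus N, and 0.03 without S80, and -0.69 for EM minus NP, beside 0.02 and 0.03 over all genes tested.

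In E1, 4 of 13 members passed an unadjusted p of 0.05 for EM minus N, all higher in EM, against 5.45% of all genes that were higher at that level. They were TMEM107, with a log2 fold change of 0.97 ± 0.29 (SE, adjusted p = 0.111), PREX2, with 0.95 ± 0.37 (adjusted p = 0.26), EFNA5, with 0.79 ± 0.35 (adjusted p = 0.318), and PON3, with 1.24 ± 0.57 (adjusted p = 0.35). DESeq2 called 1 of 13, TMEM107 (0.96 ± 0.30, adjusted p = 0.0344), and edgeR called TMEM107 when the N library S22 was left out. In that comparison 1.38% of all genes were called by edgeR and 4.25% by DESeq2. For EM minus NP, 4 of 13 passed the unadjusted level, all lower in EM, against 4.26% of all genes, and they were CACNA1G (-1.29 ± 0.40, adjusted p = 0.326), VNN1 (-2.54 ± 0.96, adjusted p = 0.429), HUNK (-1.49 ± 0.64, adjusted p = 0.492) and GDF10 (-1.17 ± 0.51, adjusted p = 0.497). VNN1 and HUNK rested on the NP library S31, without which the log2 fold changes by edgeR were -0.78 ± 0.51 (adjusted p = 0.411) for VNN1 and -0.87 ± 0.52 (adjusted p = 0.363) for HUNK. For GDF10 it was then -1.35 ± 0.41 (adjusted p = 0.0912) and for CACNA1G -1.45 ± 0.34 (adjusted p = 0.0465), which passed. In that fit edgeR called 173 of 14041 genes, against 6 of 14084 over all libraries. DESeq2 called 0 of 13, with 0.0426% of all genes called by edgeR and 0.821% by DESeq2 over all libraries. The median log2 fold change over the members was 0.36 for EM minus N and -0.82 for EM minus NP, beside 0.01 and -0.04 over all genes, and without the EM library S17 it was 0.52 and -0.46. Trophoblast markers summed to 8.17 to 13.3 CPM in EM of E1, 0.433 to 3.16 CPM in N and 0.553 to 2.32 CPM in NP. In E2 they summed to 3.95 to 312 CPM in EM, 29.5 to 259 CPM in N and 65.9 to 1051 CPM in NP. The highest sum was thus in a non-pregnant cow, and these sums are not read as conceptus cells in endometrium. Leukocyte markers in E1 summed to 318 to 401 CPM in EM, 244 to 1220 CPM in N and 279 to 696 CPM in NP. The part of both marker lists in the log2 fold changes of E1 was not tested.

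The mean log2(CPM + 1) over the 13 members gives their level in each library beside the level of the ISGs (42 in E2 and 40 in E1), and is a description. In E2 the level of the members was 3.13 to 4.06 in EM, 2.75 to 4.05 in N and 3.73 to 4.78 in NP, and that of the ISGs was 3.95 to 8.74 in EM, 6.0 to 9.07 in N and 3.85 to 5.12 in NP. The EM libraries S77 and S80 had ISG levels of 4.70 and 3.95, within the NP range, and levels of the members of 4.06 and 3.69. The other 4 EM libraries had ISG levels of 7.30 to 8.74 and levels of the members of 3.13 to 3.90. In E1 the EM library S14 had an ISG level of 7.97, within the N range of 7.59 to 9.60, and a level of the members of 3.46. The EM libraries S15, S16 and S17 had ISG levels of 5.59, 4.88 and 5.16, within the NP range of 4.61 to 5.81, and levels of the members of 4.12, 3.76 and 2.86, where N ranged from 2.67 to 3.95 and NP from 3.58 to 4.66. The lowest of these, S17, thus had few ISG transcripts together with a low level of the members, and it was the EM library with the most smooth muscle markers.

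The members were next followed in corpus luteum and PBMC, whose libraries did not choose them. In NP cows of E2, 10 of 13 members had their highest mean CPM in endometrium among the 3 tissues. So did 47.3% of the 15801 names with at least 2 CPM in NP endometrium of E2. Since the endometrial level was part of the choice, the count of members is a description. CACNA1G had a mean of 84.2 CPM in endometrium, 16.2 CPM in corpus luteum and 0.0328 CPM in PBMC, LAMA3 76.3, 16.1 and 1.05 CPM, and HUNK 20.7, 1.60 and 0.94 CPM. COL4A3 and COL4A4 were about as high in corpus luteum (29.7 and 75.3 CPM) as in endometrium (28.9 and 71.6 CPM), and VNN1 was highest in PBMC (29.7 CPM). The tables were scaled separately, so these levels were set side by side and not tested.

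In corpus luteum 12 of the 13 members were tested, COL2A1 being too low, and 0 of 12 passed an adjusted p of 0.05 by edgeR in any of the 3 contrasts. The share of all genes called was 0.00568% for EM minus N, 0% for EM minus NP and 0% for N minus NP, and DESeq2 called 0 members in each, with 0.0575%, 0.023% and 0.0403% of all genes. For N minus NP, the contrast that chose the members in endometrium, 0 of 12 passed an unadjusted p of 0.05, against 2.22% of all genes, and the log2 fold changes ran from -0.47 to 0.89 with a median of -0.26, beside -0.01 over all genes, and 9 of 12 were under 0, as were 53% of all genes. At that level 4 of 12 passed for EM minus N, against 6.83% of all genes, and 4 of 12 for EM minus NP, against 4.46%.

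COL4A3 and COL4A4 had the most negative log2 fold changes of the 12 members for EM minus NP in corpus luteum. COL4A3 had 0.911, 12.6 and 16.9 CPM in EM, 7.18, 22.5 and 49.5 CPM in N, against 18.2, 31.8 and 38.3 CPM in NP. Every EM library lay below every NP library, as for 0.0341% of the genes tested, and EM and N overlapped. The log2 fold change was -1.47 ± 0.45 (SE, adjusted p = 1 by edgeR) for EM minus NP and -1.18 ± 0.43 (adjusted p = 0.724) for EM minus N. Without the EM library S121 and the NP library S109, in which the luteal markers were low, these were -1.34 ± 0.37 (adjusted p = 1) and -0.94 ± 0.34 (adjusted p = 0.998).

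COL4A4 had 6.97, 40.4 and 58.6 CPM in EM, 16.3, 60.2 and 104.8 CPM in N, against 42.3, 81 and 109.4 CPM in NP, with 3 EM libraries below every NP library. Its log2 fold change was -1.09 ± 0.40 (SE, adjusted p = 1 by edgeR) for EM minus NP, and -0.98 ± 0.36 (adjusted p = 1) without S121 and S109. Of the other type IV collagen chains, COL4A1 had a log2 fold change of -0.27 ± 0.31 and COL4A2 of -0.22 ± 0.27 for EM minus NP in corpus luteum (adjusted p = 1 for both by edgeR). The other members past the unadjusted level for EM minus NP were CACNA1G, with -0.74 ± 0.34, and GDF10, with 1.86 ± 0.85 (adjusted p = 1 for both), and without S121 and S109 they had -0.21 ± 0.27 and 1.68 ± 0.89.

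VNN1, LAMA3 and PON3 had higher log2 fold changes in EM than in N at the unadjusted level, and these values rested on 1 library. VNN1 had 5.55, 7.06 and 161 CPM in EM, 5.0, 10.2 and 19 CPM in N, against 4.0, 12.9 and 31.5 CPM in NP. LAMA3 had 7.32, 12.5 and 88.8 CPM in EM, 5.82, 10.4 and 18.8 CPM in N, against 7.52, 14.4 and 27.5 CPM in NP. The highest EM value of VNN1, LAMA3 and PON3 was that of S121, which also carried 2274 CPM of endometrial epithelial markers and 23723 CPM of smooth muscle markers, against 70.6 to 455 CPM and 344 to 11592 CPM in the other corpus luteum libraries, and the second highest of VNN1 and LAMA3 in EM was that of S112, with 39 and 31.5 CPM. For EM minus N the log2 fold changes were 1.84 ± 0.63 for VNN1 and 1.24 ± 0.43 for LAMA3 (SE, adjusted p = 0.724 for both by edgeR), and without S121 they were 0.27 ± 0.48 and 0.33 ± 0.32 (adjusted p = 1 for both).

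**Figure D5:**
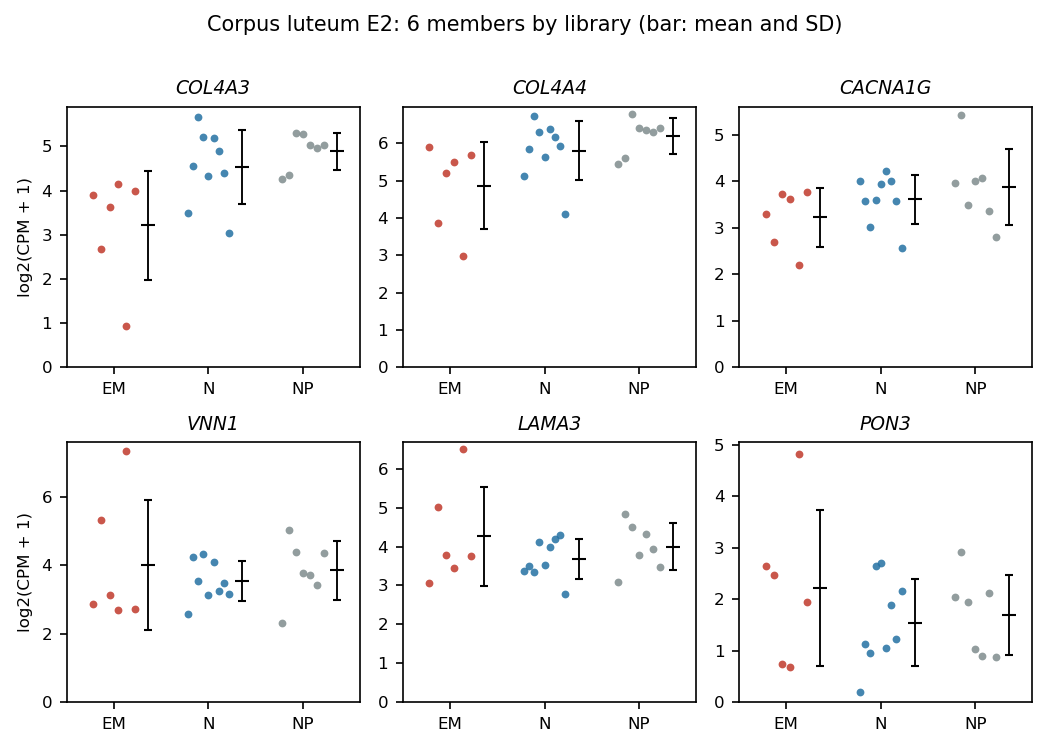
Level of 6 members in corpus luteum E2 as log2(CPM + 1), with 1 point per library in EM (n = 6), N (n = 9) and NP (n = 7), and a bar for the mean and SD of each group. All EM points of COL4A3 lie below the NP points, and 1 EM library, S121, is the highest for VNN1, LAMA3 and PON3.

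In PBMC most members were near or below 1 CPM. In E2, 10 of 13 had a mean under 1 CPM in NP, and GDF10 had 0 counts in all 22 libraries, so that 5 members could be tested. By edgeR 0 of 5 passed in each of the 3 contrasts of E2, with 0% of all genes called in each, 0 of 5 passed an unadjusted p of 0.05, against 2.1% of all genes for EM minus N, 1.71% for EM minus NP and 4.55% for N minus NP. DESeq2 called 0 members, with 0% of all genes called for EM minus N and EM minus NP and 0.152% for N minus NP, where it gave an adjusted p for 1 member. VNN1, the member with the highest level in PBMC, had 8.28, 28.3 and 42.2 CPM in EM, 17.1, 24.5 and 53.6 CPM in N, against 9.80, 22.7 and 52.7 CPM in NP, with a log2 fold change of 0.04 ± 0.39 for N minus NP (SE, adjusted p = 0.993 by edgeR). TMEM107 had 1.40, 1.52 and 1.86 CPM in EM, 0.565, 1.29 and 1.80 CPM in N, against 0.809, 1.52 and 1.96 CPM in NP, and its groups overlapped. In PBMC E1, 0 of 5 tested members passed in each contrast by edgeR, with 0% of all genes called in each, and 0 of 5 passed the unadjusted level, against 6.59% of all genes for EM minus N, 3.25% for EM minus NP and 5.24% for N minus NP. Leaving out the NP library S47 did not change these counts of called members, and DESeq2, which gave an adjusted p for 4 members, called 0, with 0.0526% of all genes for EM minus N and 0% for the other two. VNN1 had 4.44, 6.37 and 9.58 CPM in EM, 1.38, 2.12 and 14.5 CPM in N (lowest, median and highest), and 0, 5.63, 6.29, 7.68 and 7.79 CPM in NP, the 0 being that of S47.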

How the data were processed

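RNA-Seq libraries were taken as deposited, as tables of raw counts that the authors made per gene. The study gives trimming and alignment of 75 bp single-end reads to ARS-UCD 1.2 for the conceptuses of E2, and per the labels the remaining E2 tables are on that build. E1 had 100 bp paired-end reads, with endometrium on UMD3.1. The counting program, its strand setting and the build of PBMC E1 are not given in the sources used here. Groups came from the labels for 127 of 129 samples. The remaining 2, labelled with both tissue names, went into no comparison, and their 2 columns were left aside. The conceptus samples of E1 were given a group by their labels, but no count columns were matched to them and they were not used. In the E2 tables of 35186 rows each, 28 rows that repeat a name were dropped, and 4629 of the 24616 rows of endometrium E1 had no symbol. Together with rows that repeat a name, 7465 rows of endometrium E1 were not used in the matching by name, which left 17151 names. A column of the N sheet of endometrium E2 whose name an EM column also bears was taken by its sheet, and an N sample of that tissue had no column of its own name.

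The members were chosen on CPM of column totals and matched by name. The members, gene lists and alternatives were chosen with earlier results of these data known. The text names all members, the 3 names on each side of the limit, and related chains picked after seeing the members. Counts were tested with edgeR 4.0.16 in R 4.3.3 over all genes and all 3 groups (TMM, quasi-likelihood test, Benjamini-Hochberg at 0.05), after filterByExpr at a minimum count of 10. The SE is the log2 fold change over the square root of F, without sign. Alternatives were DESeq2 1.42.0, RLE factors, no filter beyond 1 count, only the compared groups, and leaving out libraries. The fits were tested on simulated data. Correlations used scipy 1.17.1. Whether libraries of a group came from separate animals is not stated in the labels, so p-values measure the spread between libraries. Pairs of libraries within a group differed by at least 14.1 in chi-square per degree of freedom, so none was counted as a repeat. Sequences of the members were not used here.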

Additional observations from a re-analysis of the deposited data

Results flagged for a closer look

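In groups of 4 to 10 libraries, a library was singled out when its gap to the nearest library was large for the range of the group by Dixon's 95% criterion, on log2(CPM + 1). This picked 12 groups of values, 9.52% of those tested, where chance gives about 1 in 20.

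In endometrium E2 the EM library S80 was far below the other EM libraries for COL4A3, with 0.718 CPM and the next library at 10.7 CPM, and for COL4A4, with 2.80 CPM and the next at 22.7 CPM. S80 had the most smooth muscle markers of the EM libraries. The N library S72 was far below the other N libraries for PREX2, with 0.429 CPM and the next at 6.26 CPM, and for TMEM107, with 0.501 CPM and the next at 4.39 CPM.

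In endometrium E1 the NP library S31 was lowest for COL4A3, with 9.03 CPM and the next at 28.6 CPM, and for PREX2, with 3.16 CPM and the next at 11.2 CPM. The N library S22 was highest for COL4A4, with 74.5 CPM and the next at 18.1 CPM. The N library S23, which is rich in smooth muscle markers, was highest for CA8, with 146 CPM and the next at 23.6 CPM, and lowest for HUNK, with 0.379 CPM and the next at 2.38 CPM.

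In corpus luteum the NP library S109 was lowest for CA8, with 4.69 CPM and the next at 13.7 CPM, the N library S129 was lowest for PREX2, with 3.69 CPM and the next at 9.41 CPM, and the EM library S121 was highest for HUNK, with 3.97 CPM and the next at 1.77 CPM.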

How the results depend on the processing

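The number of members moved with the rule. It was 13 as reported, 2 with a required difference of 1.0, 20 with a pseudocount of 0.5, 31 with medians in place of means, 6 with TMM-scaled CPM, and 12 with a minimum of 5 CPM in NP. Leaving out each N or NP library in turn gave 8 (without the E1 N library S13) to 21 (without the E1 NP library S31), and leaving out the E2 N library S81 and the E1 NP library S31 together, chosen after seeing the data, gave 22, of which 6 were among the 13. With TMM scaling the 6 were all among the 13, with medians 9 of 31 were, and with a pseudocount of 0.5 all 13 were. For N minus NP in endometrium, DESeq2 called 1 member in E2 and 6 in E1, where edgeR called 0 and 1, and leaving out each library gave 1 to 3 in E1, with 3 without S22, S23, S30 or S31 and 2 without S28. Without S31 edgeR called 802 of 14041 genes in that contrast, against 355 of 14084 over all libraries. For EM minus N in E1, DESeq2 called 1 and leaving out each library gave 0 to 1, and for EM minus NP leaving out each library gave 0 to 1. Of 363 alternatives of the counts of called members 353 gave a count within 1.5 times the reported count and 10 did not. With 1 library left out, a choice made after seeing the data, the members with an EM mean nearer to N than to NP numbered 8 to 12 in E2 and 6 to 8 in E1, against 10 and 7. Of 236 single log2 fold changes with RLE factors or by DESeq2, over all contrasts but N minus NP of endometrium, 233 kept their direction and side of the threshold, 1 passed it (TMEM107 in E1 for EM minus N, 0.96 by DESeq2), and 2 reversed, both for CA8 in PBMC E1 for EM minus NP, at -0.014 with RLE factors and -0.018 by DESeq2, where edgeR with TMM gave 0.003. The cause of these shifts was not tested. No paired analysis was possible because the groups compared share no replicate numbers. In PBMC the counts of most members were too low for a test. In E2, edgeR's log2 fold change and the difference of mean log2(CPM + 1) can differ in sign for variable genes, as for CA8 in EM minus N (-0.28 and 0.22).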

Other observations

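The conceptus libraries of E2 were not among the tissues compared above, and their values for the members are given without a test. LAMA3 had 27.4, 92 and 162 CPM in EM conceptuses (lowest, median and highest, n = 6), against 0.06, 0.151 and 2.96 CPM in N conceptuses (n = 9). VNN1 had 19.5, 49.3 and 213 CPM in EM and 0, 0.122 and 10.5 CPM in N, and COL4A4 had 0.379, 9.39 and 16.4 CPM in EM and 0, 0.0815 and 0.179 CPM in N. CACNA1G (0.288 to 2.57 CPM in EM and 0 to 0.1 CPM in N) and PREX2 (0.118 to 0.63 CPM in EM and 0 to 0.0926 CPM in N) were low in both groups. For these 5 of the 13 members every EM library lay above every N library. Among all genes with at least 10 counts in at least 6 libraries, 20.6% did so. Only 7 members had such counts, and of the 5 only LAMA3 and VNN1 were among them. The 5 of 13 therefore cannot be set against that share. CA8 and HUNK ran across each other instead, with 15.7, 55.1 and 242 CPM in EM and 49.4, 76.9 and 136 CPM in N for CA8, and 2.0, 18.1 and 49 CPM in EM and 23.6, 33.1 and 43.7 CPM in N for HUNK. The mean log2(CPM + 1) over the 13 members was 2.32 to 3.03 in EM and 1.18 to 1.90 in N conceptuses. The EM libraries also carried 385 to 3819 CPM of leukocyte markers, against 13.5 to 73.8 CPM in N, 80.2 to 1580 CPM of stromal markers, against 11.8 to 51.9 CPM, and 315 to 44022 CPM of trophoblast markers, against 57614 to 89900 CPM, and their part in these values was not tested.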
